A study of Mus musculus with 12 samples.

Results

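Ras proteins are switched on by guanine nucleotide exchange factors, which replace bound GDP with GTP, and switched off by GTPase activators, which speed the hydrolysis of that GTP. The 9 genes described here encode regulators of both kinds in the mouse frontal cortex. The exchange factors are Sos1, Sos2, Rasgrf1, Rasgrf2, Rasgrp1 and Rasgrp2, and the GTPase activators are Nf1, Rasa1 and Rasal1. They were taken as a family by name, with earlier results of these data known, and matched by Ensembl identifier to GENCODE M21. All 9 were found among the 54532 genes of the deposited count table, and all 9 passed the filter on low counts that kept 17307 genes for testing.

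Messenger RNA of 12 mice, all 9 months old, was sequenced. The groups were APP/PS1/Hras-/- males, APP/PS1/Hras-/- females, APP/PS1 males and APP/PS1 females, with 3 mice in each. APP/PS1 mice carry human transgenes linked to familial Alzheimer's disease and form amyloid plaques, and every mouse of the study carried them. Mice without the transgenes are therefore not part of any comparison, and how the Hras allele was made is not given in the sources used here. In bulk tissue, fewer cells of a type and less RNA per cell cannot be told apart.

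In neurons the exchange factors couple Ras to different signals. Sos proteins are brought to active receptor tyrosine kinases by the adaptor Grb2. Rasgrf proteins bind calmodulin and respond to calcium entry, and Rasgrp1 binds diacylglycerol and calcium. Nf1 encodes neurofibromin, the tumour suppressor of neurofibromatosis, whose partial loss in mice impairs learning through excess Ras activity. Rasa1 encodes the activator that binds phosphorylated receptors, and Rasal1 encodes an activator that is recruited to the membrane by calcium.

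Total counts ran from 13984692 to 20174131 per library. Hras, the targeted gene, encodes a Ras protein. Its level lay between 19.4 and 23.4 CPM (counts scaled to library size) in APP/PS1/Hras-/- libraries, median 20.6. In APP/PS1 libraries it lay between 73.7 and 102 CPM, median 79.7. It fell by 1.95 on the log2 scale (SE 0.077, edgeR quasi-likelihood test, adjusted p = 3.05e-09). Hras reads thus remained in every knockout library. The 4 neuron markers Rbfox3, Snap25, Syt1 and Stmn2 summed to 4064.5 to 5129 CPM in APP/PS1/Hras-/- and 3351 to 5084 CPM in APP/PS1 libraries. Markers of striatum and choroid plexus varied far more. The lists of hippocampal neurons, of thalamic and other subcortical neurons and of leptomeninges varied less than these. The 12 striatal markers summed to 281 to 773 CPM in APP/PS1/Hras-/- and 229 to 925 CPM in APP/PS1 libraries, and the 5 choroid plexus markers to 10.2 to 587 CPM and 35.2 to 3048 CPM in the same order of genotypes. On the first principal component, which held 23.9% of the variance, APP/PS1/Hras-/- male 1 and APP/PS1 female 2 lay far from the rest. RNA integrity, given in the labels as a number (RIN), was lowest, 7.8, in APP/PS1 male 1, against 8.2 to 8.7 in the other libraries.

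Levels of different genes were compared as RPKM, the CPM value divided by the length of all exons of the gene merged, in kilobases. Rasgrp1 was the most abundant regulator, with a mean of 86.4 RPKM over the 12 libraries (SD 8.93). Rasgrf1 followed at 37.1 (SD 2.12), Rasal1 at 33.6 (SD 7.83) and Rasgrf2 at 22.6 RPKM (SD 2.11). The remaining 5 genes lay below 10 RPKM, with Nf1 at 8.26 (SD 0.761), Sos1 at 6.19 (SD 0.42), Rasa1 at 5.95 (SD 0.726), Sos2 at 4.43 (SD 0.36) and Rasgrp2 at 2.97 RPKM (SD 0.645). By this length Rasgrp1 made up 54.1% of the summed RPKM of the 6 exchange factors, Rasgrf1 23.2%, Rasgrp2 1.86%, and Sos1 and Sos2 3.88% and 2.77%. Among the activators Rasal1 made up 70.3%, Nf1 17.3% and Rasa1 12.4%.

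Neighbours in this order were compared within each library by an exact two-sided sign-flip permutation test, adjusted over the 8 pairs. The order was taken from the same 12 libraries. The p therefore describes how steady a difference was between libraries for the gene length used, and does not test the order itself. In 6 pairs the upper gene was higher in 12 of 12 libraries (adjusted p = 0.000651 for each, from 0.000488, the smallest p that 12 libraries can give). Rasgrf1 and Rasal1 did not separate, with Rasgrf1 higher in 8 of 12 libraries (mean log2 difference 0.17, SD 0.33, adjusted p = 0.112), nor did Sos1 and Rasa1 (0.06, SD 0.15, 7 of 12 libraries, adjusted p = 0.166).

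The order depended on the gene length used, most of all for Rasgrp2. Its 24 annotated transcripts merge to 12384 bases of exon, while its longest coding transcript has 2296. Per kilobase of the longest coding transcript Rasgrp2 stood at 16.0 RPKM, between Rasal1 at 36.6 and Nf1 at 10.99. Rasgrf1, with 11063 merged bases and 4766 in its longest coding transcript, stood at 86.1 RPKM and no longer separated from Rasgrp1 at 92.5 (mean log2 difference 0.10, exact permutation adjusted p = 0.058). Rasa1 at 9.54 RPKM then lay above Sos1 at 7.77 and Sos2 at 6.73. Of the summed RPKM of the exchange factors Rasgrp1 then made up 37.7%, Rasgrf1 35.1% and Rasgrp2 6.53%, and Rasal1 made up 64.1% of that of the activators. Rasgrp1, Rasgrf1, Rasal1 and Rasgrf2 filled the top 4 places by either length.

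**Figure D1:**
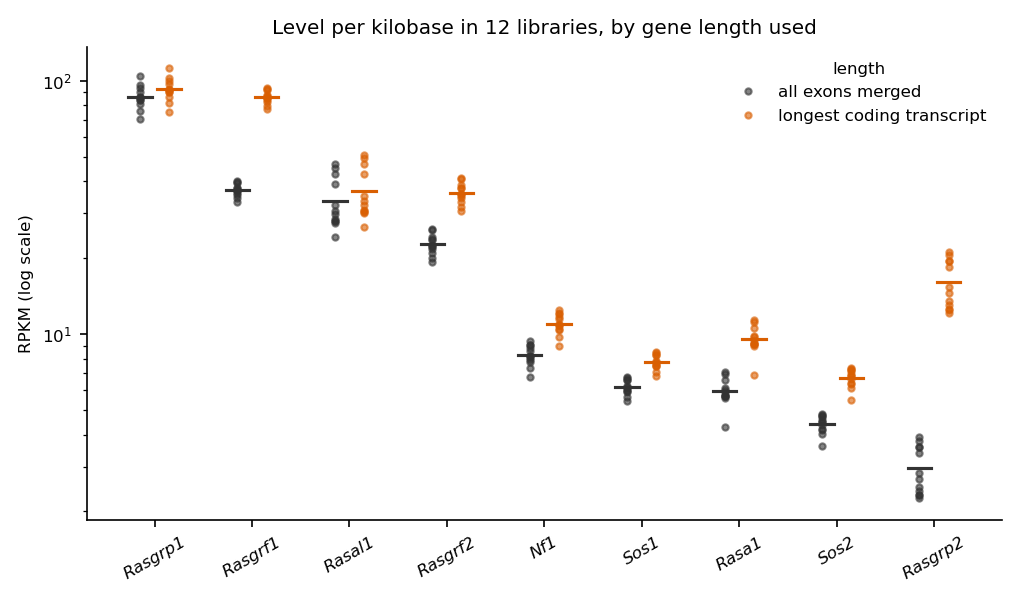
Level of each regulator in the 12 libraries in RPKM on a log axis, with a point per library and a bar at the mean, by merged exon length (black) and by the longest coding transcript (orange). Rasgrp1 has the highest mean by either length, though by the coding transcript it did not separate from Rasgrf1 (exact permutation adjusted p = 0.058), while Rasgrp2 is lowest at 2.97 RPKM by merged exons and the fifth at 16.0 RPKM by the coding transcript.

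The summed level of the exchange factors was 163.2 ± 11.02 RPKM in APP/PS1/Hras-/- and 156.1 ± 12.04 RPKM in APP/PS1 mice (SD, n = 6 each). That of the activators was 47.9 ± 9.63 and 47.8 ± 6.54 RPKM in the same order of genotypes. Both sums overlapped between the genotypes.

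No regulator passed the test for an effect of Hras loss across the sexes, 0 of 9 at an adjusted p under 0.05, where 0.0173% of all 17307 tested genes did. None was at an unadjusted p under 0.05 either, against 1.68% of all genes, and no member's 6 APP/PS1/Hras-/- libraries lay wholly above or below the 6 APP/PS1 libraries, against 0.116% of all genes. The estimates were above 0 for 7 members and below 0 for 2, and 51.1% of all genes were above 0. Their median was a log2 difference of 0.04, and that of all genes 0.0024. Every adjusted p of a member was 0.9999.

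Sos1 (ENSMUSG00000024241, GRCm38 chromosome 17, 80393751 to 80480453, minus strand) had a lowest, median and highest level of 59.8, 68.0 and 71.9 CPM in APP/PS1/Hras-/- and 57.7, 63.6 and 69.9 CPM in APP/PS1 libraries. The ranges overlapped, and the log2 difference was 0.08 (SE 0.061), a change of 5.76% with a 95% interval of −3.44% to 15.8%. Its paralog Sos2 (ENSMUSG00000034801, chromosome 12, 69583762 to 69681852, minus strand) had 34.4, 38.7 and 40.4 CPM in APP/PS1/Hras-/- and 30.9, 37.9 and 41.2 CPM in APP/PS1 libraries. The knockout range lay inside that of APP/PS1, with a log2 difference of 0.02 (SE 0.075, 95% interval −9.14% to 13.6%).

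Rasgrf1 (ENSMUSG00000032356, chromosome 9, 89909908 to 90026977, plus strand), which is enriched in adult forebrain neurons, had a lowest, median and highest level of 399.6, 417 and 445 CPM in APP/PS1/Hras-/- and 369, 399.7 and 436 CPM in APP/PS1 libraries. This was the steadiest member, and its ranges still overlapped at a log2 difference of 0.08 (SE 0.054, 95% interval −2.20% to 14.7%). Rasgrf2 (ENSMUSG00000021708, chromosome 13, 91880400 to 92131656, minus strand) had 193, 206 and 239.7 CPM in APP/PS1/Hras-/- and 177, 212 and 238 CPM in APP/PS1 libraries. The genotypes covered almost the same range, with a log2 difference of 0.02 (SE 0.080, 95% interval −10.1% to 14.1%).

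Rasgrp1 (ENSMUSG00000027347, chromosome 2, 117279993 to 117343001, minus strand) had a lowest, median and highest level of 453, 475 and 584 CPM in APP/PS1/Hras-/- and 394, 482 and 536 CPM in APP/PS1 libraries. The extremes were higher in the knockout and the median was lower, and the log2 difference was 0.08 (SE 0.086, 95% interval −7.25% to 19.7%). Rasgrp2 (ENSMUSG00000032946, chromosome 19, 6399340 to 6415216, plus strand), an exchange factor better known for acting on the related GTPase Rap1, had 27.8, 34.2 and 44.6 CPM in APP/PS1/Hras-/- and 28.8, 36.5 and 48.6 CPM in APP/PS1 libraries. Its log2 difference was −0.08 (SE 0.17, 95% interval −27.3% to 22.6%). Rasgrp2 shares 265 exon bases with Gm14965 on the opposite strand, and since the strand setting of the counting is not given in the sources used here, part of its counts could belong to that transcript.

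Nf1 (ENSMUSG00000020716, chromosome 11, 79339693 to 79581612, plus strand) had a lowest, median and highest level of 116, 135 and 144 CPM in APP/PS1/Hras-/- and 107, 129 and 148 CPM in APP/PS1 libraries. The knockout range again lay inside that of APP/PS1, with a log2 difference of 0.04 (SE 0.078, 95% interval −8.28% to 15.7%). Genes in its introns on the opposite strand, among them the myelin gene Omg, share no exon bases with it. Rasa1 (ENSMUSG00000021549, chromosome 13, 85214780 to 85289130, minus strand) had 41.6, 42.6 and 51.9 CPM in APP/PS1/Hras-/- and 31.6, 43.0 and 50.9 CPM in APP/PS1 libraries, a log2 difference of 0.05 (SE 0.095, 95% interval −10.0% to 19.5%). It shares 12 exon bases with the protein-coding gene Ccnh on the opposite strand. Rasal1 (ENSMUSG00000029602, chromosome 5, 120648812 to 120679597, plus strand) had 85.7, 104 and 166 CPM in APP/PS1/Hras-/- and 97.3, 109.8 and 160.4 CPM in APP/PS1 libraries. It differed by −0.01 on the log2 scale (SE 0.19, 95% interval −25.3% to 31.5%).

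The intervals differed in width. For Rasgrp2 and Rasal1 they reach beyond a change of 20% in each direction, while for the other 7 members they lie within −10.1% to 19.7%. A p above the threshold does not show that the genotypes are alike. With RIN as a covariate the estimates of Sos2, Nf1, Rasa1 and Rasal1 changed sign, to −0.08, −0.06, −0.06 and 0.09.

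**Figure D2:**
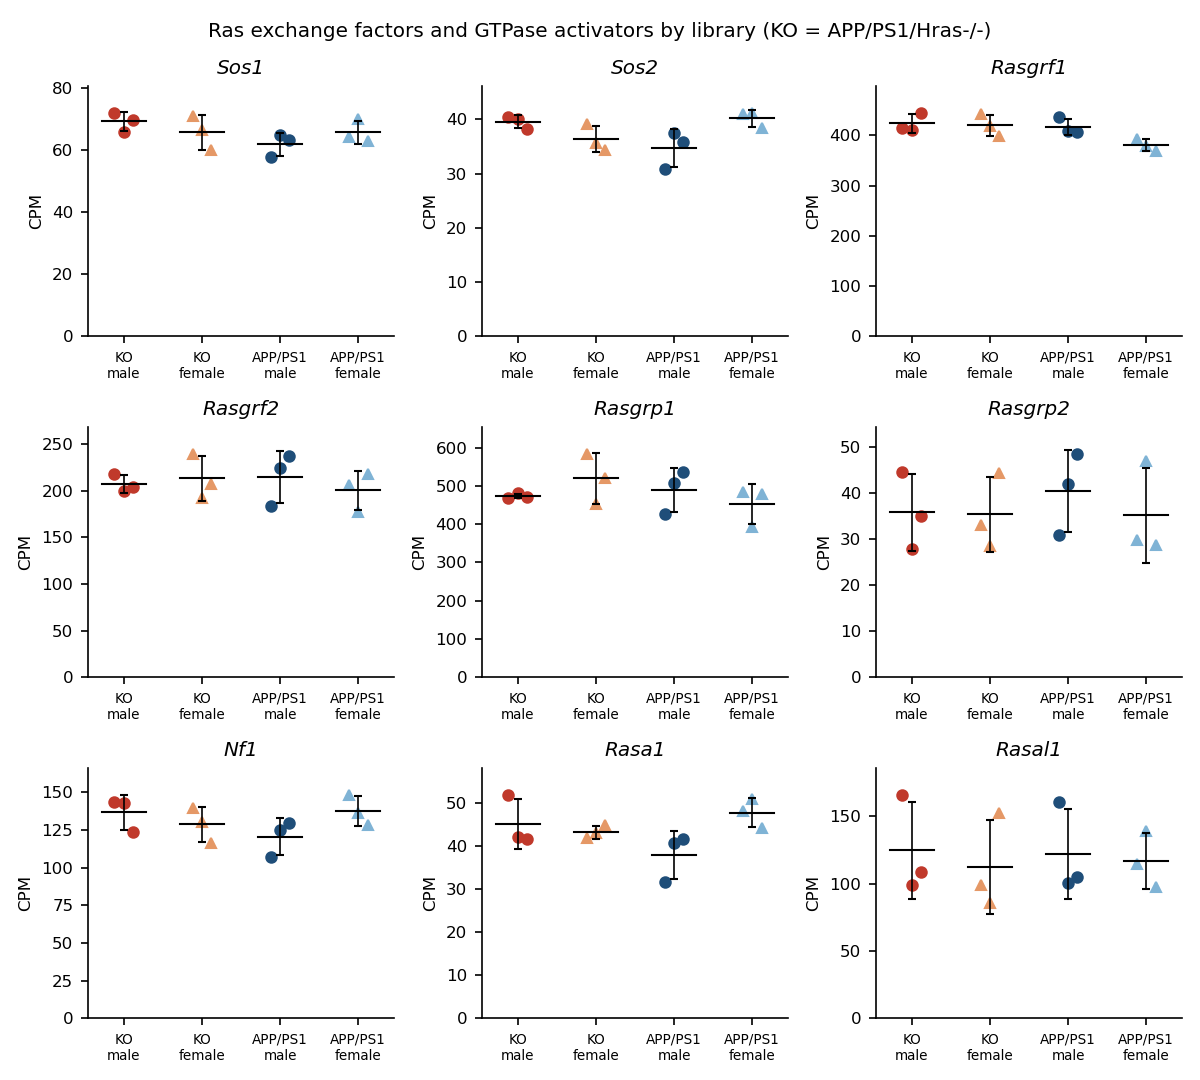
CPM of each regulator in single libraries, with the 4 groups along the x axis, the mean as a bar and the SD as whiskers (n = 3 each; KO is APP/PS1/Hras-/-). The knockout and APP/PS1 libraries overlap for all 9 genes when the sexes are joined, and APP/PS1 male 1 is the lowest library for Sos1, Sos2, Nf1 and Rasa1.

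**Figure D3:**
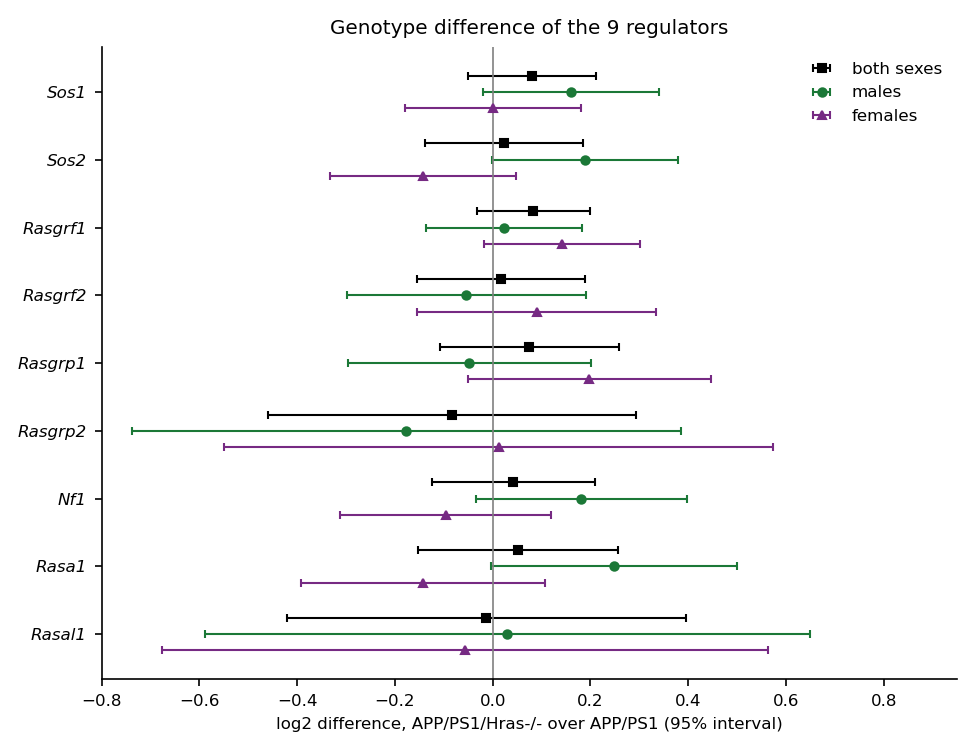
Log2 difference of APP/PS1/Hras-/- over APP/PS1 for each regulator, with 95% intervals, in both sexes together, in males and in females. Every interval includes 0, and those of Rasgrp2 and Rasal1 are the widest.

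Within males 0 of 9 members passed the test, against 0.0116% of all genes, and none was at an unadjusted p under 0.05, against 3.91%. Sos1 and Sos2 did not overlap between the male groups, 2 of 9 members where 10.3% of all genes did not overlap. Sos1 stood at 71.9, 65.7 and 69.7 CPM in APP/PS1/Hras-/- males and at 57.7, 64.7 and 63.2 CPM in APP/PS1 males (log2 difference 0.16, SE 0.084, adjusted p = 0.945, edgeR). Sos2 stood at 40.4, 40.1 and 38.3 CPM in APP/PS1/Hras-/- males and at 30.9, 37.4 and 35.9 CPM in APP/PS1 males (0.19, SE 0.088, adjusted p = 0.945, edgeR). In each case APP/PS1 male 1 was the lowest library, and without it the log2 difference was 0.11 for Sos1 and 0.11 for Sos2. RIN was 8.6 to 8.7 in APP/PS1/Hras-/- males and 7.8 to 8.3 in APP/PS1 males. These ranges did not overlap, so RIN and genotype cannot be told apart among males. Once RIN entered the model, the male estimates were −0.03 for Sos1 and −0.10 for Sos2. The male estimates were also positive for Nf1 (0.18, SE 0.10) and Rasa1 (0.25, SE 0.12). Estimates were above 0 for 6 members and 51.5% of all genes. The median of the members was 0.03 and that of all genes 0.0063.

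Within females 0 of 9 members passed, again against 0.0116% of all genes, with none at an unadjusted p under 0.05, against 3.81%. Rasgrf1 was the member whose female groups did not overlap, 1 of 9 where 9.34% of all genes did not. It stood at 442, 419 and 399.6 CPM in APP/PS1/Hras-/- females and at 393, 379.8 and 369 CPM in APP/PS1 females (log2 difference 0.14, SE 0.074, adjusted p = 0.991, edgeR). Rasgrp1 had the largest positive estimate in females (0.20, SE 0.12), with 584, 453 and 522 CPM in APP/PS1/Hras-/- and 484, 394 and 479.9 CPM in APP/PS1 females, which overlapped. The estimates of Sos2 (−0.14, SE 0.088), Rasa1 (−0.14, SE 0.12) and Nf1 (−0.10, SE 0.10) were below 0. Estimates were above 0 for 5 members and 50.5% of all genes. The median of the members was 0.0016 and that of all genes 0.0021.

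The difference of the genotype effect between females and males was called for 0 of 9 members, against 0% of all genes by edgeR, and for 0 genes by DESeq2 or limma-voom. At an unadjusted p under 0.05 were 2 of 9 members and 7.21% of all genes. These members were Sos2, with an interaction of −0.33 (SE 0.12, unadjusted p = 0.0197, adjusted p = 0.667, edgeR), and Rasa1, with −0.39 (SE 0.16, unadjusted p = 0.0332, adjusted p = 0.667, edgeR). In females Sos2 stood at 39.1, 35.7 and 34.4 CPM in APP/PS1/Hras-/- and at 40.9, 41.2 and 38.4 CPM in APP/PS1 mice. Rasa1 stood at 41.8, 43.1 and 44.8 CPM in APP/PS1/Hras-/- females against 48.0, 50.9 and 44.3 CPM in APP/PS1 females, and at 51.9, 42.0 and 41.6 CPM in APP/PS1/Hras-/- males against 31.6, 40.8 and 41.7 CPM in APP/PS1 males. The male groups of Rasa1 overlapped, and without APP/PS1 male 1 its male log2 difference was 0.13 in place of 0.25. RIN, higher in the knockout among males, was no higher among females, at 8.5, 8.4 and 8.3 in APP/PS1/Hras-/- females against 8.6, 8.5 and 8.5 in APP/PS1 females. With RIN as a covariate the interaction was 0.03 (SE 0.18) for Sos2 and −0.06 (SE 0.27) for Rasa1. The part of RIN in the interaction was not tested, since RIN and genotype cannot be told apart among males. The interaction was above 0 for 4 members and 49% of all genes, with a median of −0.09 over the members and −0.0068 over all genes.

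Between the sexes, 0 of 9 members passed the test of females over males, against 0.0693% of all genes, 0 were at an unadjusted p under 0.05, against 4.65%, and 0 had separate ranges, against 0.272%. The largest estimate was that of Rasa1, 0.13 (SE 0.095, adjusted p = 0.989, edgeR). Estimates were above 0 for 5 members and 50.6% of all genes, and the median of the members was 0.0059 and that of all genes 0.0017.

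Across the 12 libraries the members differed in how steady they were. The coefficient of variation of CPM was lowest for Rasgrf1 at 5.71%, followed by Sos1 at 6.79%, Sos2 at 8.12%, Nf1 at 9.22% and Rasgrf2 at 9.32%. Rasgrp1 had 10.3% and Rasa1 12.2%. Rasgrp2 at 21.7% and Rasal1 at 23.3% stood at the 93.4 and 94.6 percentile of the 10440 genes that averaged 10 CPM or more, whose median was 9.42%. The spread of Rasal1 came from 4 libraries of all 4 groups. APP/PS1/Hras-/- male 1 at 166 CPM, APP/PS1/Hras-/- female 3 at 152 CPM, APP/PS1 male 1 at 160.4 CPM and APP/PS1 female 2 at 139 CPM lay above the other 8, which ran from 85.7 to 114 CPM.

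Rasgrp2 varied with the striatal markers of the libraries. The striatal score is the mean of the centred log2 CPM of 12 marker genes of striatal projection neurons, among them Ppp1r1b, Drd1 and Adora2a, and Rasgrp2 is known to be abundant in those neurons. Pearson's r between Rasgrp2 and the score was 0.871 (permutation p = 0.00034, adjusted p = 0.00306 over the 9 members) and Spearman's rho 0.888 (permutation p = 0.00025, adjusted p = 0.00225). Without APP/PS1 male 3 and APP/PS1 male 1, the libraries farthest from the median score, r was 0.864. Within the 6 APP/PS1/Hras-/- libraries r was 0.945 (exact permutation p = 0.00139, adjusted p = 0.0125). Within the 6 APP/PS1 libraries r was 0.815 (exact permutation p = 0.0514, adjusted p = 0.412). With the score as a covariate the genotype estimate of Rasgrp2 was 0.02 in place of −0.08, and its SE 0.090 in place of 0.17.

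No other member passed in this family of 9 relations over all 12 libraries. The score was not compared with all tested genes, so the share of them that follows it is not known here. Rasa1 had r = 0.631 (permutation p = 0.0223, adjusted p = 0.100) and rho = 0.413. Without APP/PS1 male 3 alone its r was 0.794 (permutation, adjusted p = 0.00895) and its rho 0.645 (adjusted p = 0.165). For Rasal1 r was 0.312 over all libraries (permutation p = 0.319, adjusted p = 0.361, rho 0.42) and 0.867 without the 2 libraries farthest from the median score. APP/PS1 male 1, with the lowest striatal score and a high Rasal1 level, departs from the other libraries. Within APP/PS1/Hras-/- libraries r for Rasal1 was 0.933 (exact permutation p = 0.00833, adjusted p = 0.0375) and rho 0.829 (adjusted p = 0.262). Within APP/PS1 libraries r was −0.359 (exact permutation p = 0.481, adjusted p = 0.588). Without APP/PS1 male 1 alone Rasal1 had r = 0.666 (permutation, adjusted p = 0.117) and rho = 0.755 (adjusted p = 0.045). For the remaining 6 members r lay between −0.312 and 0.364. These values also moved with single libraries, to 0.673 for Rasgrf2 without APP/PS1 female 2, 0.537 for Sos2 without APP/PS1 male 3, 0.492 for Nf1 without APP/PS1/Hras-/- male 2 and −0.536 for Rasgrf1 without APP/PS1 female 3, none of which passed. Without APP/PS1 male 1, r was 0.0635 for Sos1, 0.037 for Sos2, 0.028 for Nf1 and −0.0244 for Rasgrp1.

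The regulators were also compared with each other over the 36 possible pairs, a family chosen after their values were seen. In 4 pairs the adjusted permutation p of Pearson's r was under 0.05, and in 2 of these that of Spearman's rho was as well. Pairs of other genes were not examined, so such values are not shown to be particular to the regulators. Rasgrf2 and Rasgrp1, exchange factors that respond to calcium, had r = 0.900 (adjusted p = 0.00288) and rho = 0.818 (adjusted p = 0.0403), with 0.816 within APP/PS1/Hras-/- and 0.977 within APP/PS1 libraries. Sos2 and Nf1, an exchange factor and an activator, had r = 0.895 (adjusted p = 0.00324) and rho = 0.811 (adjusted p = 0.0403), with 0.854 and 0.926 in the same order of genotypes. Without the 2 libraries farthest from the median of the first gene of each pair, r was 0.808 and 0.704.

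The promoters of these 4 genes are shown because their transcripts varied together in pairs. Each window holds the 250 bases before the RefSeq transcription start on GRCm38.p6, read 5′ to 3′ on the strand of the gene. Capitals mark matches on either strand to GC boxes (GGGCGG, in 32.7% of 32851 RefSeq windows of this length), the core of ETS sites (CCGGAA, 12%), the core of the cyclic AMP response element (TGACG, 17.8%) and the E box (CACGTG, 6.02%). A match is a description of letters and not a site of binding. The windows lie at chr13:92131829-92132078 for Rasgrf2, chr2:117342878-117343127 for Rasgrp1, chr12:69681853-69682102 for Sos2, all on the minus strand, and chr11:79339642-79339891 for Nf1 on the plus strand. Most of the window of Nf1 and part of that of Rasgrp1 lie inside the genes as annotated in GENCODE M21. Their 5′ ends in that annotation lie at 79339693 for Nf1 and 117343001 for Rasgrp1.
Rasgrf2: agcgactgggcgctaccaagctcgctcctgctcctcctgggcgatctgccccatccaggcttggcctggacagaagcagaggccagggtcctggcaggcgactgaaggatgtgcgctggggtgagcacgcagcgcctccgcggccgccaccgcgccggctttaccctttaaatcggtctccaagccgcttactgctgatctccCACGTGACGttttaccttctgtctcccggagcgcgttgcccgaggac
Rasgrp1: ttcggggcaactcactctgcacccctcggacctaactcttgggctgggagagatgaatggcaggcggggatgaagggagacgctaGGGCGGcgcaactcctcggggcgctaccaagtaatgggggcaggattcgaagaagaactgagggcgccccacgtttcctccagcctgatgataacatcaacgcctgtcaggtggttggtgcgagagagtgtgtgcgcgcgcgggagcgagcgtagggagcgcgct
Sos2: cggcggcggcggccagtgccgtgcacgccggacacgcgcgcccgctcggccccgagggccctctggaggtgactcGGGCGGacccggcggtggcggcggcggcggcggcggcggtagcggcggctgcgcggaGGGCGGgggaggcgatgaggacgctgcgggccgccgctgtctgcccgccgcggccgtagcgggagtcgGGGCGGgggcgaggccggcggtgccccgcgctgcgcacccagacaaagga
Nf1: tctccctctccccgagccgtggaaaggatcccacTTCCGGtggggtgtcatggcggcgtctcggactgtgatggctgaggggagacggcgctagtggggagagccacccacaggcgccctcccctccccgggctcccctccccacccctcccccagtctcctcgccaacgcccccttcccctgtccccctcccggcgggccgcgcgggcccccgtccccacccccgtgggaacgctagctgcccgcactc

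Neither pair shared a motif of this search. Rasgrf2 held an E box and a cyclic AMP response element core that overlap, Rasgrp1 a GC box, Sos2 3 GC boxes and Nf1 an ETS core on the opposite strand. The GC content of the windows was 65.2% for Rasgrf2, 62.4% for Rasgrp1, 82.8% for Sos2 and 74.0% for Nf1, and the median over all windows was 52.4%. Of the members, 8 of 9 had a window. Sos1 and Rasa1 held an ETS core, Rasa1 and Rasgrf1 a GC box, Rasgrf1 a cyclic AMP response element core, and Rasgrp2, with 2 windows, 7 GC boxes and an ETS core.

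The other 2 pairs that passed by Pearson's r also held Sos2. Sos2 and Rasa1 had r = 0.794 (permutation, adjusted p = 0.0343) and rho = 0.622 (adjusted p = 0.273), with 0.19 within APP/PS1/Hras-/- and 0.983 within APP/PS1 libraries, and Sos1 and Sos2 had r = 0.763 (adjusted p = 0.0343) and rho = 0.622 (adjusted p = 0.273), with 0.774 and 0.869. Without the 2 libraries farthest from the median of the first gene, r was 0.672 and 0.558. Among Sos1, Nf1 and Rasa1 no pair passed, with r = 0.678 for Sos1 and Nf1 (permutation, adjusted p = 0.0894), 0.721 for Nf1 and Rasa1 (adjusted p = 0.0639) and 0.600 for Sos1 and Rasa1 (adjusted p = 0.186). Rasa1 had r of 0.187 with Sos1 and 0.251 with Nf1 within APP/PS1/Hras-/-, against 0.892 and 0.923 within APP/PS1 libraries. By Pearson's r, Sos1, Sos2, Nf1 and Rasa1 each varied with RIN, in a set of 9 relations likewise chosen after the values were seen. How common such a relation is among all tested genes was not computed, so it is not shown to be particular to these members. Pearson's r with RIN was 0.867 for Sos2 (permutation, adjusted p = 0.00972), 0.780 for Nf1 (adjusted p = 0.0153), 0.716 for Sos1 (adjusted p = 0.0198) and 0.711 for Rasa1 (adjusted p = 0.0412). Spearman's rho was 0.715, 0.616, 0.570 and 0.418, none with an adjusted p under 0.05. Without APP/PS1 male 1, the library of lowest RIN, r was 0.692 for Sos2, 0.567 for Nf1, 0.517 for Sos1 and 0.273 for Rasa1, and without APP/PS1 male 2 as well 0.759, 0.524, 0.54 and 0.11, so that the relation of Rasa1 rests on these libraries. Within APP/PS1/Hras-/- libraries r with RIN was 0.843 for Sos2, 0.531 for Nf1, 0.614 for Sos1 and −0.0844 for Rasa1, and within APP/PS1 libraries, which include APP/PS1 male 1, it was 0.949, 0.939, 0.729 and 0.956. The other 5 members had r between −0.318 and 0.144 over all libraries. Of these Rasgrf1, at −0.15, had 0.448 within APP/PS1/Hras-/- and −0.883 within APP/PS1 libraries, a difference that was not tested. As deviations from the 4 group means, r with RIN was 0.675 for Rasgrf2, 0.666 for Rasgrp1 and −0.685 for Rasal1. By the same measure it was 0.81 for Sos2, 0.714 for Nf1, 0.536 for Sos1 and 0.48 for Rasa1. Without APP/PS1 male 1, r of the undivided values was −0.316 for Rasgrf2, −0.306 for Rasgrp1 and 0.0676 for Rasal1.

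With RIN removed from both genes by regression, r was 0.899 for Rasgrf2 and Rasgrp1, 0.701 for Sos2 and Nf1, 0.507 for Sos2 and Rasa1 and 0.409 for Sos1 and Sos2. The part of the striatal score in the relations among members was not tested.

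**Figure D4:**
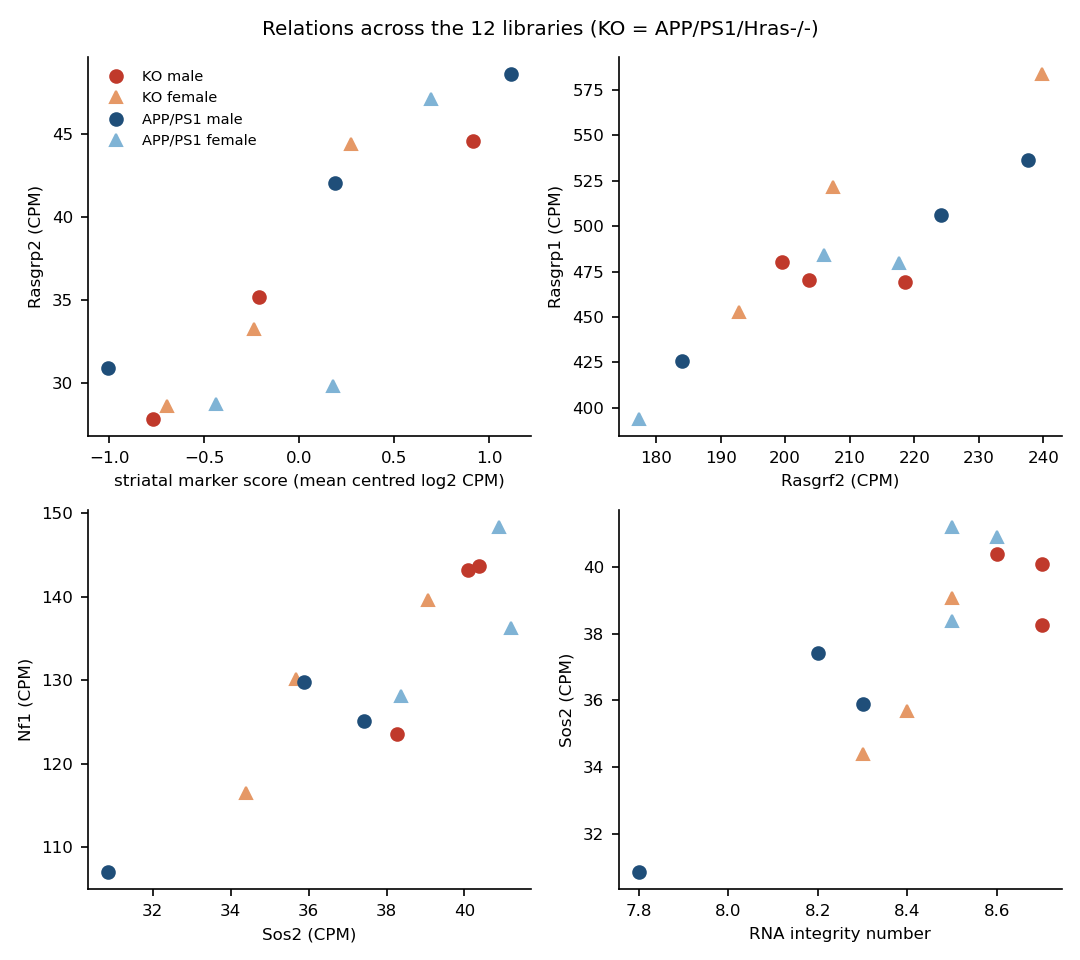
Each point is a library, by genotype and sex (KO is APP/PS1/Hras-/-). Rasgrp2 CPM is plotted against the striatal score (r = 0.871), Rasgrp1 against Rasgrf2 CPM (r = 0.900), Nf1 against Sos2 CPM (r = 0.895) and Sos2 CPM against RIN (r = 0.867), where APP/PS1 male 1 is the point at 7.8.

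**Figure D5:**
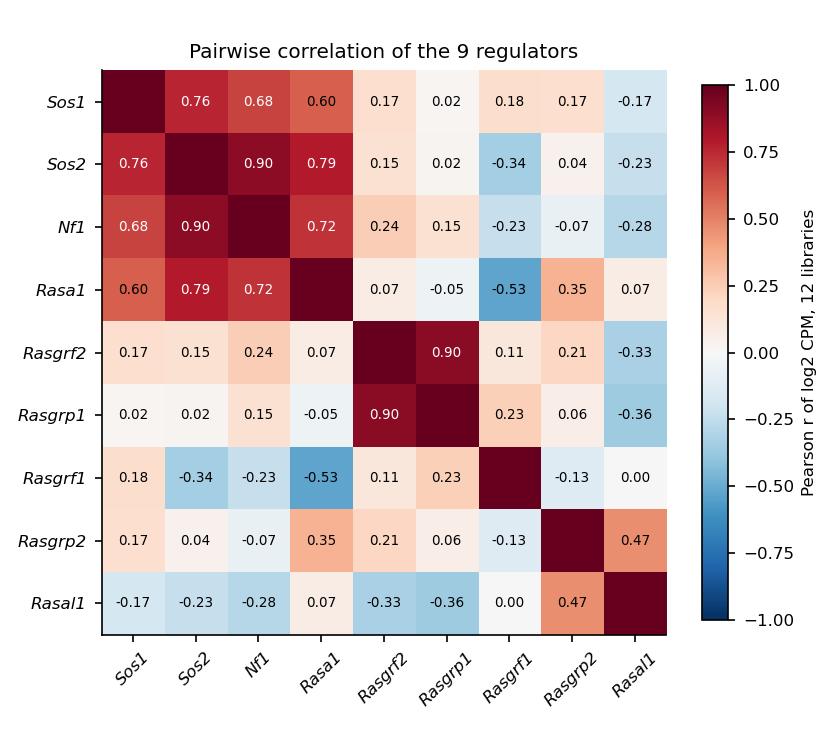
Pearson's r of log2 CPM over the 12 libraries for the 36 pairs of regulators, from −0.528 for Rasgrf1 and Rasa1 to 0.900 for Rasgrf2 and Rasgrp1. The 6 pairs among Sos1, Sos2, Nf1 and Rasa1 ran from 0.600 to 0.895, and 3 of them, each with Sos2, had an adjusted permutation p under 0.05.

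The genes most like each member were ranked by Pearson's r of log2 CPM over the 12 libraries among 15360 genes that averaged 1 CPM or more, as a description with no test. They were Nedd9 (0.923) and Scyl2 (0.910) for Sos1, and Usp9x (0.963) and Macf1 (0.962) for Nf1. For Sos2 they were 2 genes of low level, Ccdc153 (0.942, mean 1.56 CPM) and Lancl3 (0.940, mean 3.725 CPM). For Rasa1 they were Cbl (0.956), which encodes a ubiquitin ligase of receptor tyrosine kinases, and Grm7 (0.950), a metabotropic glutamate receptor. Rasgrf1 had lower values, with Abca3 at 0.866 and Mrps18b at 0.853. For Rasgrf2 they were Dnm3 (0.908), a dynamin of neurons, and Rasgrp1 (0.900), and for Rasgrp1 Cap2 (0.966) and D430041D05Rik (0.927). Rasgrp2 was most like Gpr6 (0.935, mean 3.215 CPM), itself a gene of the striatal list, and Pde1b (0.921), a phosphodiesterase abundant in striatum. Rasal1 had the closest match of all, Plppr3 at 0.986, and Thra, a thyroid hormone receptor, at 0.974. The highest of 15360 values over 12 libraries can be large with no relation between the genes.

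Other genes of the pathway were read from 7 lists of Ras GTPases, further exchange factors, further activators, IQGAP scaffolds, adaptors, calcium and diacylglycerol inputs, and upstream receptors. Of 78 genes 77 were tested, and across the sexes 1 passed, lower, which was Hras, and 0 passed in the other direction. Within males and within females Hras was again the 1 gene that passed, and 0 passed in the interaction or between the sexes. Among the GTPases Rras had the smallest p after Hras, with a log2 difference of −0.21 (SE 0.12). Among further exchange factors, which here include those of Rap, these were Rapgef2 (0.08, SE 0.071) and Rapgef6 (−0.10, SE 0.091), and among further activators Rasa2 (0.14, SE 0.083) and Rasa4 (−0.11, SE 0.098).

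Upstream of the members no gene passed either. The adaptors with the smallest p were Crkl (0.08, SE 0.057) and Frs3 (−0.11, SE 0.091), the calcium and diacylglycerol inputs Plcg1 (0.07, SE 0.051) and Plcb1 (0.10, SE 0.080), both phospholipases that produce diacylglycerol, and the receptors Fgfr3 (−0.07, SE 0.055) and Igf1r (0.09, SE 0.072). The scaffolds gave Iqgap2 (0.17, SE 0.14) and Iqgap3 (−0.08, SE 0.20). Each of these genes other than Hras had an adjusted p of 0.9999 in edgeR.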

How the data were processed

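The authors deposited a table of raw counts, 1 row per gene and 1 column per library, not normalized. Per the labels, TruSeq Stranded mRNA libraries were made from frontal cortex RNA and read as pairs, and per the submitters' processing notes Trimmomatic 0.33, FastQC 0.11.7, HISAT2 2.1.0 and featureCounts were used, with the builds mm10 and mm9 named. Which annotation, strand setting and rule for multiply aligned reads applied is not given in the sources used here. Identifiers were matched to GENCODE M21, 54495 of 54532 genes, and coordinates are on GRCm38.

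The 9 members and the 7 pathway and 14 marker lists were chosen with earlier results of these data known. Counts were scaled by TMM, and filterByExpr kept 17307 genes. Genotype and sex effects came from the edgeR 4.0.16 quasi-likelihood test in R 4.3.3, fitted over all tested genes, with Benjamini-Hochberg adjusted p under 0.05 as the threshold. The additive model of sex and genotype gave the effects across sexes, and a model of the 4 group means gave those within a sex and the interaction. CPM and RPKM used TMM-scaled library sizes, and correlations used log2 CPM with a prior count of 2. Correlation p-values were two-sided, from 100000 resamples, or exact with 6 libraries, computed with scipy 1.17.1. The text names every member, Hras, pathway genes that passed, the 2 with the smallest p of each list, and the 2 genes most like each member. Relations among members and with RIN and the promoter motifs were added after values were seen.

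Alternatives were RLE and upper quartile scaling, 2 other filters, DESeq2 1.42.0, limma-voom (limma 3.58.1), non-robust dispersions, covariates of RIN or striatal score, no sex term, another gene length, and libraries left out. The edgeR tests were run on simulated counts first. The series describes 6 mice per genotype, so p-values cover differences between mice. Replicate numbers follow the order of deposition and do not pair mice.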

Additional observations from a re-analysis of the deposited data

Results flagged for a closer look

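In APP/PS1/Hras-/- mice Rasa1 stood at 51.9 CPM in male 1, while the other 5 libraries lay between 41.6 and 44.8 CPM. On the scale of log2 CPM the gap to the nearest library was 0.661 of the range of the group. This was above the 95% limit of 0.625 for 6 samples in Dixon's test. Of 20 groups examined this was the 1 beyond the limit, and chance alone passes the limit in about 1 of 20 groups. The same library had 166 CPM of Rasal1, the highest of all 12, and 44.6 CPM of Rasgrp2, the highest of its genotype. On the first principal component it lay far from most libraries, as did APP/PS1 female 2.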

How the results depend on the processing

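No member was called in any of the 963 estimates of members under the alternatives (lowest adjusted p = 0.446), while 79 of them changed sign. Of all genes, DESeq2 called 7 across sexes, 4 in males, 5 in females and 27 between the sexes, and edgeR with no low-count filter called 5 across sexes and 4 in females. With 1 library left out, edgeR called 9 to 20 genes between the sexes, 20 without APP/PS1/Hras-/- male 2. With RIN as a covariate, values turned across sexes for Sos2 (−0.082), Nf1 (−0.058), Rasa1 (−0.058) and Rasal1 (0.0898), in males for Sos1 (−0.029), Sos2 (−0.10), Nf1 (−0.17) and Rasa1 (−0.016), in the interaction for Sos1 (0.073), Sos2 (0.026), Nf1 (0.15) and Hras (−0.35), and between the sexes for Sos1 (−0.016). Without APP/PS1/Hras-/- male 1 and APP/PS1 female 2 they turned for Rasgrf2 across sexes (−0.041) and between the sexes (0.022), for Rasal1 in males (−0.23), females (0.086) and the interaction (0.31), and for Sos1 between the sexes (−0.011). Sos1 in females, at 0.0016, turned with upper quartile scaling (−0.018), no filter (−0.00098), a filter of 1 CPM (−0.0055) and limma-voom (−0.00078), Rasgrp2 in females with upper quartile scaling (−0.0094), Rasgrp2 across sexes with the striatal score as a covariate (0.015), and Sos1 between the sexes with no filter (−0.00023). With the longest coding transcript as length, Rasgrp1 over Rasgrf1 fell to 0.099 (adjusted p = 0.058), Rasgrf1 over Rasal1 was 1.27 and separated, and Rasal1 over Rasgrf2 (−0.00698), Sos1 over Rasa1 (−0.29) and Sos2 over Rasgrp2 (−1.23) turned, which follows from the change of lengths. With each library left out in turn, estimates that changed sign ranged across sexes from −0.031 to 0.060 for Sos2, −0.032 to 0.063 for Rasgrf2, −0.18 to 0.022 for Rasgrp2, −0.0084 to 0.089 for Nf1, −0.022 to 0.094 for Rasa1 and −0.13 to 0.091 for Rasal1. In males they ranged from −0.022 to 0.056 for Rasgrf1, −0.16 to 0.026 for Rasgrf2, −0.14 to 0.026 for Rasgrp1 and −0.23 to 0.28 for Rasal1. In females they ranged from −0.058 to 0.068 for Sos1, −0.0020 to 0.16 for Rasgrf2, −0.18 to 0.28 for Rasgrp2 and −0.34 to 0.11 for Rasal1, and in the interaction from −0.0053 to 0.45 for Rasgrp2 and −0.37 to 0.17 for Rasal1. Between the sexes they ranged from −0.025 to 0.040 for Sos1, −0.010 to 0.078 for Sos2, −0.080 to 0.013 for Rasgrf2, −0.045 to 0.065 for Rasgrp1, −0.00086 to 0.094 for Nf1 and −0.23 to 0.0088 for Rasal1. Pearson's r with the striatal score ranged from 0.837 to 0.932 for Rasgrp2 and from −0.024 to 0.466 for Rasgrp1. For Rasa1 r ranged from 0.483 to 0.794, and without APP/PS1 male 3 Rasa1 was called by r but not by Spearman's rho. For Rasal1 r ranged from 0.126 to 0.666, and without APP/PS1 male 1 Rasal1 was called by Spearman's rho but not by r. Other than the lengths, the cause of these turns was not tested. No paired analysis was possible because the replicate numbers come from the order of deposition. Member counts ran from 402 to 9770 per library, and the parts of counting error and of differences between mice in the spread were not separated.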
